A study of Mus musculus with 6 samples.

Results

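The large subunit of the cytosolic ribosome was followed in aged mouse muscle through the 46 genes that code for its proteins. The genes were taken by name and matched by Ensembl identifier in a deposited table of raw counts for 55416 genes, and all 46 were found. They lie on 17 chromosomes, with at most 6 on one. The libraries came from the tibialis anterior (TA), a fast-twitch muscle of the lower leg, of 3 wild-type (WT) and 3 SELENOW knockout (KO) mice raised without other treatment to 24 months of age. Selenoprotein W (SELENOW) is a small selenocysteine protein of the thioredoxin fold, and the KO line was made with CRISPR-Cas9 and kept with the WT line on a C57BL/6N background. The comparison asks how the loss of SELENOW changed gene expression in aged muscle. How many founder animals stand behind the KO line is not given in the sources used here.

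Each large subunit holds the catalytic centre that joins amino acids, the tunnel through which the new protein leaves, and a flexible acidic stalk that calls in the elongation factors. Its proteins are made in the cytosol, carried to the nucleolus, fitted onto ribosomal RNA with the help of assembly factors, and sent back as nearly finished subunits. Most of their mRNAs begin with a run of pyrimidines called a terminal oligopyrimidine (TOP) motif, through which mTORC1 and the RNA-binding protein LARP1 govern translation. In muscle the number of ribosomes is one of the limits on how much protein a fibre can make.

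The 6 libraries held 25351976 to 29111213 counts each. Genes of the mitochondrial genome took 29.1% to 37.3% of the counts in WT and 35.4% to 40.3% in KO libraries. Levels are given as CPM, a count's share of its library on a fixed scale, after TMM scaling, which sets aside such abundant genes. The 12 muscle-fibre markers, among them Acta1 and Ckm, were all expressed and none was called. Selenow transcript itself stood at 268, 245 and 219 CPM in WT and at 193, 212 and 210 CPM in KO, a log2 difference of -0.25 (adjusted p = 0.604 in edgeR). The KO libraries were below the WT libraries, but most of the transcript remained, so its level is a weak check of the labels. The study describes removal of an exon and reports loss of the protein in skeletal muscle by Western blot. The counts here cover the whole gene, not that exon alone. A gene was called by the thresholds the study used, an unadjusted p under 0.05 with a fold change over 1.5 or under 0.7. The study applied them to DESeq2 output and reported more genes higher than lower in KO. The calls here are from edgeR. By this rule 836 of 15623 tested genes were called in either direction (5.35%), 491 of them lower in KO (3.14%). Scaling by total counts in place of TMM, which put the median of all genes at -0.25 on the log2 scale, gave 1712 lower and 80 higher. DESeq2 on the same genes also gave more lower than higher, 478 against 293. In edgeR the direction turned without WT replicate 1 (396 lower, 418 higher) and without KO replicate 3 (410 lower, 423 higher), and in no other fit. With edgeR no gene, 0 of 15623, had an adjusted p under 0.05, while 1545 (9.89%) had an unadjusted p under 0.05 and 45 (0.288%) passed an adjusted p under 0.05 with DESeq2. This count depended on the setting: edgeR without the filter on low counts gave 363 genes, 8 of them large-subunit genes, and without KO replicate 2 it gave 242 genes and 0 large-subunit genes. The p values set the difference between genotypes against the spread among libraries of a genotype, for these 6 libraries.

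Transcripts of large-subunit proteins were lower in KO muscle as a group. All 46 genes passed the filter on low counts, 44 of them had a log2 fold change below 0, and the median was -0.31 with a range of -1.06 to 0.041. Over all tested genes the median was -0.0042 and 50.6% were below 0. Among the 46, 8 were called lower, or 17.4% against the 3.14% called lower over all genes. In the other direction 0 were called, against 2.21% over all genes. Of protein-coding genes alone 1.76% were called lower. In the classes of shortest transcripts described below the share was higher, 7.87% and 8.33% without the ribosomal genes. The 8 called genes lie on 6 chromosomes. An unadjusted p under 0.05 was reached by 20 members, all of them lower in KO, against 5.16% of all genes in that direction. In 25 members all KO values lay under all WT values, a separation seen in 7.87% of all tested genes, and in 0 members they lay above, as in 7.53% of all genes. Another 11 members had 2 KO libraries below all WT libraries, 5 members had 1, and 5 members had 0.

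The shift was also seen library by library. Summed over the 46 genes, the level was 3616, 3244 and 2903 CPM in WT replicates 1, 2 and 3 and 2597, 2626 and 2811 CPM in KO replicates 1, 2 and 3. The groups did not overlap, although the gap between the lowest WT and the highest KO library was smaller than the spread within WT. As a share of all counts before scaling, the 46 genes took 0.352%, 0.358% and 0.347% in WT and 0.232%, 0.236% and 0.272% in KO. Leaving the mitochondrial genome out of the total gave 0.561%, 0.505% and 0.495% in WT and 0.389%, 0.381% and 0.421% in KO, so KO libraries stayed below WT libraries on either base. The order of the WT libraries depended on the base, with replicate 2 highest as a share of all counts. TMM factors, which apply to every gene of a library, were 0.974, 1.10 and 1.20 in WT replicates 1, 2 and 3. After this scaling WT replicate 1 was the highest of the 6 libraries in 38 members and KO replicate 2 the lowest in 23. Without WT replicate 1 the count of members called fell from 8 to 3 (Rpl22l1, Rpl37a and Rpl39), without KO replicate 2 it was 5, and without WT replicate 3 it rose to 12.

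**Figure D1:**
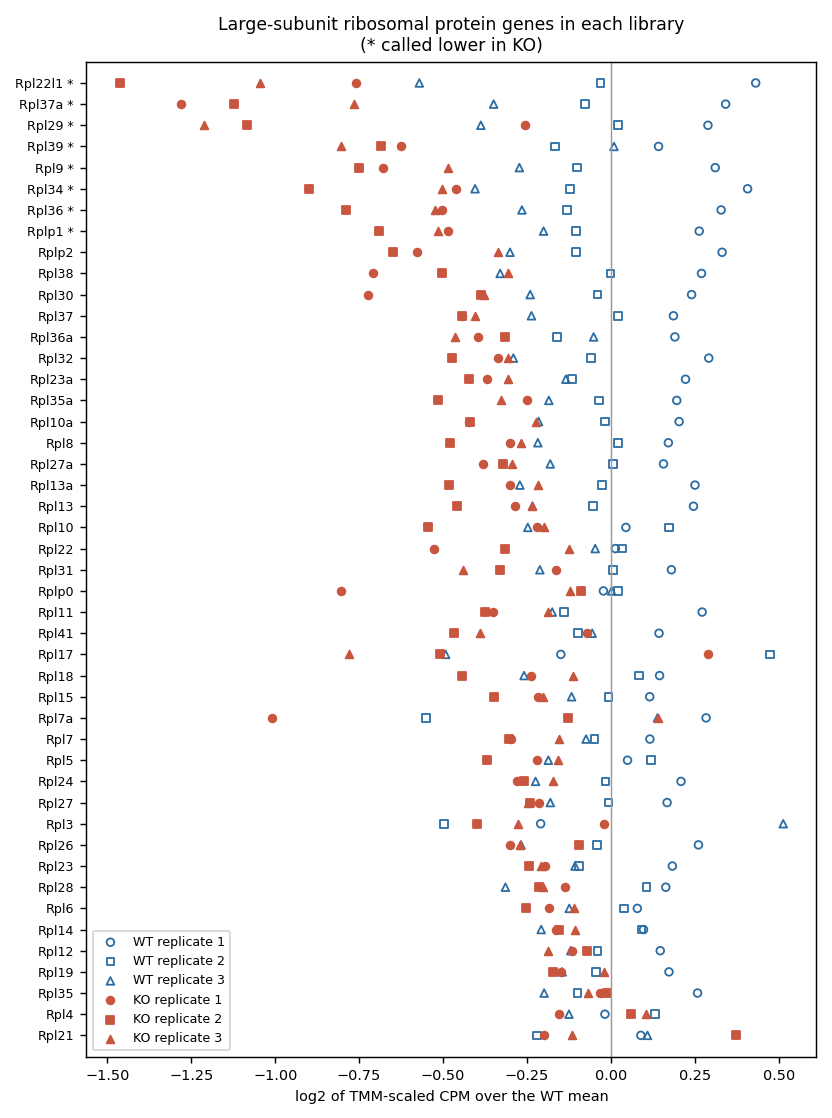
Level of each of the 46 large-subunit genes in each library, as log2 of its TMM-scaled CPM over the WT mean, ordered by fold change with the most reduced at the top. Open blue symbols are the 3 WT libraries, filled red symbols the 3 KO libraries, and a star marks the 8 members called lower. The red symbols lie left of the blue ones in 25 rows, and WT replicate 1 (open circle) is the rightmost point in 38.

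The deepest losses were in Rpl22l1 and Rpl37a. Rpl22l1, the paralog of the RNA-binding protein Rpl22, had 17.3, 12.5 and 8.63 CPM in WT and 7.57, 4.65 and 6.21 CPM in KO. All KO values were below all WT values, but the nearest libraries were close. Its log2 fold change was -1.06 (SE 0.268, unadjusted p = 0.00363, adjusted p = 0.301), a KO level 51.9% below WT, and it was the most thinly counted member, with 114 counts in its lowest library. Rpl37a, a small zinc-binding protein of the subunit surface, had 45.7, 34.2 and 28.3 CPM in WT and 14.8, 16.6 and 21.2 CPM in KO. The 2 groups did not overlap, although the gap between their nearest libraries was smaller than the spread within WT. The log2 fold change was -1.04 (SE 0.192, unadjusted p = 0.000224, adjusted p = 0.238), and -0.83 without WT replicate 1.

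Rpl39, one of the shortest ribosomal proteins, lines the tunnel through which the growing chain leaves. It had 21.1, 17.0 and 19.2 CPM in WT and 12.4, 11.9 and 10.9 CPM in KO. Its libraries varied little within a genotype, so that a log2 fold change of -0.70 (SE 0.132) gave the lowest p of the group, 0.00017 (adjusted p = 0.232). Rpl22l1, Rpl37a and Rpl39 were called in all 18 alternative fits, 6 of which left out a library. They were also the 3 members with an adjusted p under 0.05 in DESeq2, at 0.0312, 0.000756 and 0.0217, against 26 genes lower in KO (0.166%) over the whole table.

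The other called members fell by less. Rpl9, which sits near the site where elongation factors bind, had 65.6, 49.3 and 43.8 CPM in WT and 33.0, 31.4 and 37.8 CPM in KO, a log2 fold change of -0.63 (SE 0.161, adjusted p = 0.296). Rplp1, an acidic protein of the stalk, had 119, 92.1 and 86.1 CPM in WT and 70.7, 61.3 and 69.2 CPM in KO, a log2 fold change of -0.56 (SE 0.153, adjusted p = 0.301). In both genes the KO libraries were tightly grouped below a wider WT group. Without WT replicate 1 they were at -0.45 and -0.41 and not called, and without KO replicate 2 Rplp1 was at -0.50 and not called.

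Rpl34, a protein of the subunit body, had 45.3, 31.4 and 25.8 CPM in WT and 24.8, 18.3 and 24.1 CPM in KO (log2 fold change -0.61, adjusted p = 0.396). Rpl36, another small protein found in eukaryotes and not in bacteria, had 39.3, 28.6 and 26.1 CPM in WT and 22.1, 18.1 and 21.8 CPM in KO (log2 fold change -0.60, adjusted p = 0.301). Both separated the genotypes, Rpl34 narrowly. Without WT replicate 1 the log2 fold change of Rpl34 was -0.35 and that of Rpl36 -0.40, and neither was called, nor were they without KO replicate 2 (-0.48 and -0.51). Rpl29 was the one called member whose groups overlapped, with 45.6, 37.9 and 28.6 CPM in WT and 31.3, 17.6 and 16.1 CPM in KO (log2 fold change -0.79, SE 0.288, adjusted p = 0.456). It was called in 2 of the 6 fits that left out a library, those without WT replicate 3 (-0.95) and without KO replicate 1 (-1.14), and the other four gave -0.77 to -0.61.

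**Figure D2:**
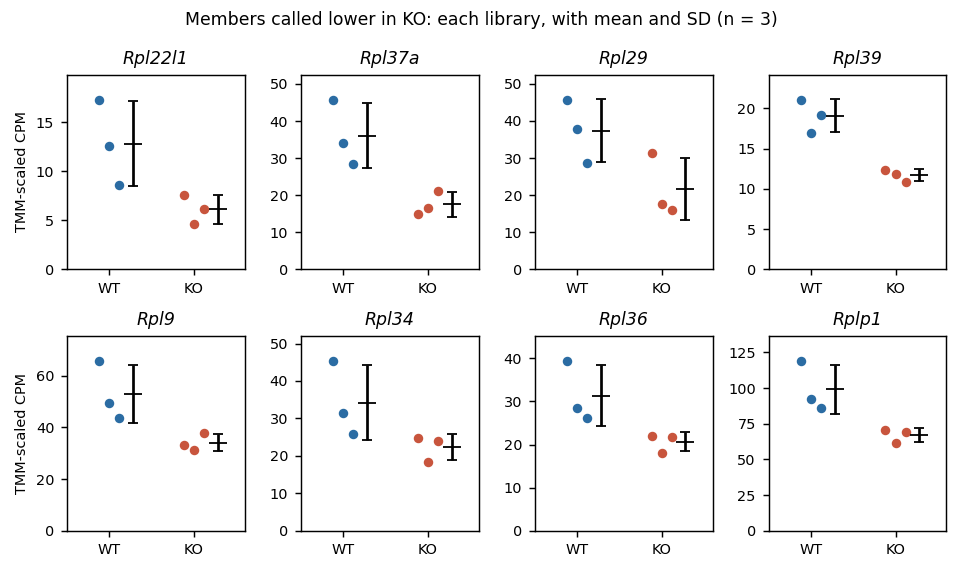
TMM-scaled CPM of the 8 called members in each library, on axes that start at 0. Points are libraries (WT blue, KO red) in the order of replicates 1, 2 and 3, and the bar beside them is the mean with its SD (n = 3). KO points lie below all WT points in every panel except that of Rpl29, where KO replicate 1 at 31.3 CPM is above WT replicate 3 at 28.6 CPM.

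The fold threshold passed between neighbours of nearly equal size. Just inside it were Rplp1 at a log2 fold change of -0.56 and Rpl36 at -0.60, and just outside, all with an unadjusted p under 0.05, were Rplp2 at -0.51, Rpl38 at -0.50 and Rpl30 at -0.49. The members outside the called set that are described here and in the following paragraphs by structural role were chosen after their values were seen, apart from those with the highest or lowest levels and fold changes and those with a paralog.

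By role, the stalk genes Rplp0, Rplp1, Rplp2 and Rpl12 had a median log2 fold change of -0.41. Rplp2, the partner of Rplp1 in the stalk, had 58.5, 43.3 and 37.8 CPM in WT and 31.2, 29.7 and 36.9 CPM in KO, with no overlap. Rplp0, the base on which both are mounted, had 286, 295 and 291 CPM in WT and 166, 273 and 267 CPM in KO. One library, KO replicate 1, set most of its log2 fold change of -0.30 (unadjusted p = 0.127), and the other two KO libraries lay just below the WT group. Rpl12, which binds beside the stalk base, had a log2 fold change of -0.12.

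The 9 genes of the tunnel and its exit had a median of -0.26, with Rpl39 called and 3 members with p under 0.05. Rpl4, whose long loop lines the tunnel wall, was at 280, 311 and 260 CPM in WT and 255, 295 and 305 CPM in KO, a log2 fold change of 0.0074 (SE 0.147). Rpl35, at the tunnel exit, had 96.7, 75.5 and 70.5 CPM in WT and 79.1, 80.3 and 77.1 CPM in KO, a log2 fold change of -0.037 (SE 0.148). In these genes the KO libraries lay inside the WT range or close to it.

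The 6 genes around the catalytic centre and the tRNA and factor sites had a median of -0.33, with Rpl9 called. The L1 stalk and the bridges to the small subunit (Rpl10a, Rpl24, Rpl30 and Rpl41) had a median of -0.33 with 0 called, and Rpl30 and Rpl10a had p under 0.05. Rpl5 and Rpl11, which travel with the 5S ribosomal RNA and when free bind the p53 regulator MDM2, had log2 fold changes of -0.25 (unadjusted p = 0.107) and -0.30 (unadjusted p = 0.0702). The 19 remaining surface proteins had a median of -0.32, with Rpl29, Rpl34, Rpl36 and Rpl37a called, and all but Rpl21 were below 0. Every role group had a median below 0.

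Of the 18 members with a bacterial counterpart, Rpl9 was called (5.56%, against 3.14% called lower over all genes) and the median was -0.28. Of the 28 found in eukaryotes and not in bacteria, 7 were called and the median was -0.34. The difference between these classes was not tested, and the second class holds most of the short genes.

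Fold change and length went together among the members. The 16 genes with a coding sequence of up to 400 bases had a median log2 fold change of -0.49, 6 of them were called and 12 separated the genotypes. The 30 longer genes had a median of -0.25, 2 were called (Rpl29 and Rpl9) and 13 separated. Over all tested genes 3.14% were called lower and 7.87% had all KO values below all WT values. Across the 46 genes Spearman's rho of log2 fold change was 0.529 with coding length and 0.591 with the length of the mature transcript, as a description across genes that share the same 6 libraries. It was 0.218 with the length over which reads were counted, and 0.400 with coding length after an offset for mature transcript length. Rpl41, with the shortest coding sequence at 75 bases, had a log2 fold change of -0.30 and was not called.

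A length trend ran through the other genes too. Protein-coding genes other than those of the cytosolic ribosome had a median log2 fold change of -0.13 when the mature transcript was up to 500 bases. It was -0.17 from 500 to 750 bases and 0.073 over 4000 bases. The share of these genes called lower was, in the same order, 8.33%, 7.87% and 0.722%. Of the members, 2 of 4 up to 500 bases and 6 of 13 from 500 to 750 bases were called lower, and 0 of the longer ones. The median of the members was below these medians in each of the length classes that held a member: -0.53 for 4 members up to 500 bases, -0.37 for 13 members from 500 to 750 bases and -0.25 for 13 members from 1000 to 1500 bases. With an offset fitted for mature transcript length, a step added after the data were seen, the median of the members was -0.21, 42 were below 0 and 4 were called, namely Rpl22l1, Rpl29 (unadjusted p = 0.0473), Rpl37a and Rpl39. An offset for the length over which reads were counted gave a median of -0.26, with 43 below 0 and 6 called.

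**Figure D3:**
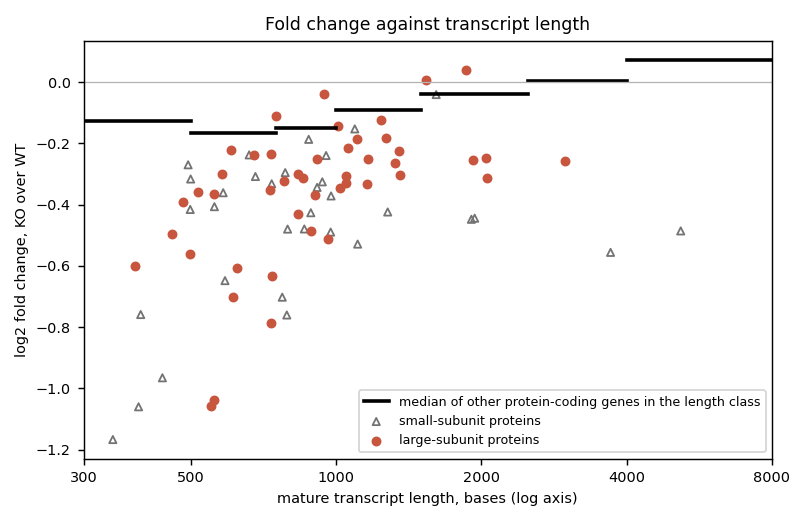
Log2 fold change of KO over WT against mature transcript length (log axis) for the 46 large-subunit genes (red) and 33 small-subunit genes (grey triangles). Black bars are medians of the other protein-coding genes in each length class, from -0.13 in the shortest to 0.073 in the longest. Most red points lie below the bar of their class, and those below -0.55 are all under 750 bases.

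Levels per kilobase of mature transcript spanned 19.9-fold among the members in WT, from 10.7 to 214 CPM per kb with a median of 65.2, and the median in KO was 51.0. The highest levels in WT were those of Rplp0 (214 ± 3.2, SD, n = 3), Rplp1 (198 ± 34.8) and Rpl4 (184 ± 16.6). Rplp0 and Rplp1 did not differ beyond their spread. The lowest were those of Rpl21 (10.7 ± 1.32), Rpl3 (10.9 ± 4.11) and Rpl17 (12.8 ± 4.46), which did not differ among themselves beyond their spread. The order depended on the length used. Per kilobase over which reads were counted, Rplp1 (198 CPM) stood above Rplp0 (175 CPM) in WT. Rpl22l1 (6.44 CPM) then stood below Rpl17 (12.8 CPM). By mature length, the order of the members was nearly the same in KO (Spearman's rho 0.974 across the 46 genes).

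Low values of some members have to be read beside their pseudogenes. Ribosomal protein genes have left many processed copies in the mouse genome, and the table lists 183 pseudogenes named after 35 of the members. In WT, pseudogenes took 86.1% of the counts of gene and pseudogenes together for Rpl17, 82.6% for Rpl7a and 79.0% for Rpl21, and over 20% for 13 members in all. How reads that fit several places were counted is not given in the sources used here, so the split between a gene and its copies is uncertain.

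Adding the named pseudogenes to their member moved the median to -0.33 and the number called to 11. Rpl30 (-0.56), Rpl36a (-0.53) and Rpl38 (-0.55) then passed both thresholds and Rpl36 (-0.49) no longer did. Rplp2, which has no named pseudogene, crossed the fold threshold in the refit alone, from -0.5132 to -0.5148. Rpl21 went from 0.041 to -0.069, and Rpl7a from -0.25 to -0.065. Rpl3, which shapes the catalytic centre, went from -0.22 to -0.46 (unadjusted p = 0.0109). Among called members with a named pseudogene the share ran from 0% in Rplp1 to 41.7% in Rpl9, and both stayed called.

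**Figure D4:**
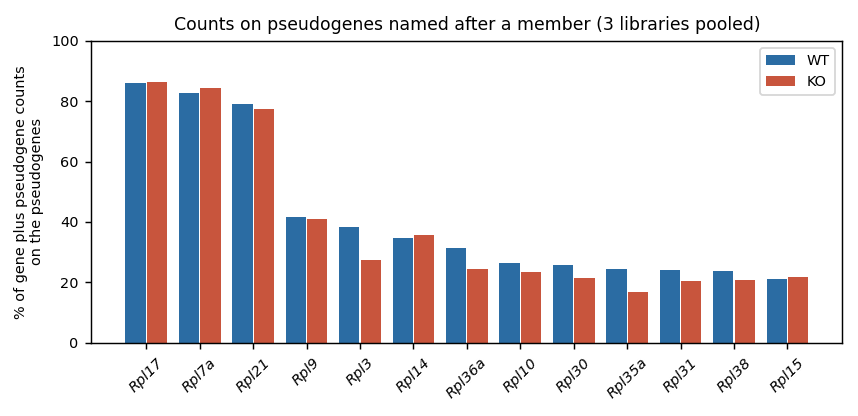
Share of counts, of gene and named pseudogenes together, that lay on the pseudogenes, for the 13 members with over 20% in WT. Bars pool the 3 libraries of a genotype (WT blue, KO red) and start at 0. Rpl17, Rpl7a and Rpl21 have more counts on pseudogenes than on the gene in both genotypes, and the KO share of Rpl3 (27.5%) is below its WT share (38.4%).

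Some members have a paralog, which in some cases can take their place in the ribosome. Rpl3l, which replaces Rpl3 in heart and skeletal muscle, was at 208, 172 and 160 CPM in WT and 189, 199 and 214 CPM in KO (log2 fold change 0.16, SE 0.149). Its ratio to Rpl3 was 16.4, 16.6 and 7.63 in WT and 13.0, 17.9 and 17.6 in KO, with WT replicate 3 apart from the other libraries. Per kilobase of mature transcript Rpl3l was at 131 CPM in WT and 146 CPM in KO, against 10.9 and 9.30 CPM for Rpl3. The log2 ratio differed by 0.33 between genotypes (exact permutation test, two-sided, p = 0.5).

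The ratio of Rpl22l1 to Rpl22 was 0.402, 0.288 and 0.209 in WT and 0.256, 0.136 and 0.159 in KO. Rpl22 itself had a log2 fold change of -0.31 (unadjusted p = 0.0375), and the log2 ratio of the pair was lower in KO by -0.71 (exact permutation test, two-sided, p = 0.2, adjusted p = 0.8 over 4 pairs). The groups overlapped in 1 library each. The smallest p that 3 against 3 libraries allow is 0.1.

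Rpl36al over Rpl36a differed by 0.023 and Rpl7l1 over Rpl7 by -0.0016 on the log2 scale (exact permutation tests, p = 0.9 and 1). Rpl36al, at 49.3 ± 4.03 CPM in WT and 38.4 ± 2.87 CPM in KO (SD, n = 3), and Rpl36a, at 26.7 ± 3.39 and 20.3 ± 1.03 CPM, were both lower in KO with unadjusted p of 0.0153 and 0.0112. The germline copies Rpl39l and Rpl10l had at most 3 counts and 1 count in any library and were not tested.

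The small subunit shifted in the same direction. All 33 of its tested genes were below 0, with a median log2 fold change of -0.42, and 9 (27.3%) were called lower against the 3.14% over all genes. Those with the lowest p were Rps28 (-0.97, adjusted p = 0.0588), Rps29 (-1.06, adjusted p = 0.0588) and Rps27 (-1.17, adjusted p = 0.163), all short proteins. Both lists rest on the same libraries, and the difference between their medians was not tested.

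Other genes of the pathway had medians closer to 0. The 48 proteins of the mitochondrial large subunit had a median of -0.14 with 41 below 0 and 0 called. The 39 assembly factors of the large subunit had a median of -0.083 with 24 below 0 and 0 called. An unadjusted p under 0.05 was reached by 5 of them, 3 of these lower. Over all genes 5.35% were called and 9.89% had an unadjusted p under 0.05, so 0 called in lists of this size says little. Of RNA polymerase I, which transcribes the large ribosomal RNAs, and its factors, 14 genes could be tested, with a median of -0.19, and only Znrd1 (also named Polr1h), a subunit of the enzyme, was called (-0.61, adjusted p = 0.478).

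The 18 other mRNAs with a TOP motif had a median of -0.096, with 12 below 0. Of them 0 were called and 2 had an unadjusted p under 0.05, against 5.35% and 9.89% over all genes. They were not alike: among the elongation factors, named after their values were seen, Eef1b2 (-0.44, unadjusted p = 0.00676) and Eef1a1 (-0.33, unadjusted p = 0.154) lay below the median of the large-subunit genes, Eef1g was at -0.26, and Eef1d (-0.026) and Eef2 (0.070) were near 0. The 6 regulators of TOP mRNAs, among them Mtor and Larp1, had a median of -0.034 and 0 called. Protein levels, phosphorylation and translation were not measured in these files.

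**Figure D5:**
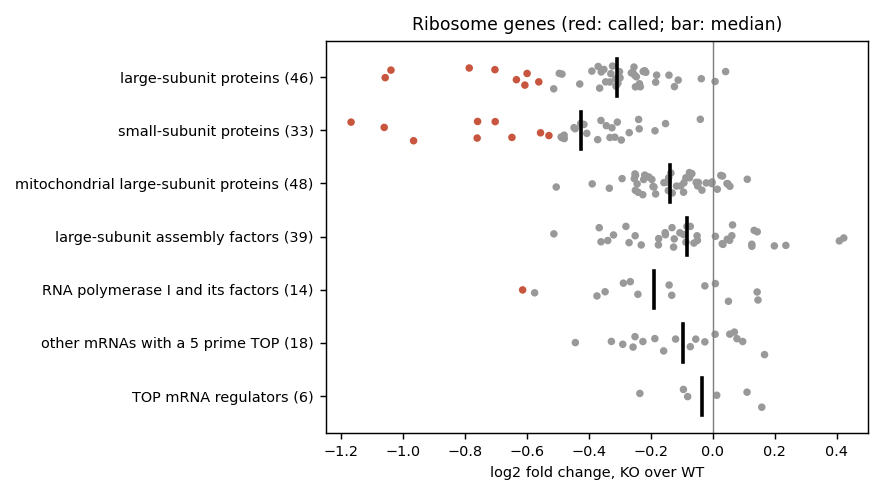
Log2 fold change of KO over WT for each tested gene of 7 lists around the ribosome, with the number of genes in parentheses. Red points are called genes, grey points the rest (spread vertically at random for legibility), and black bars list medians, from -0.42 for the small subunit and -0.31 for the large subunit to -0.034 for TOP regulators.

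The start sites of the members were inspected because a TOP motif lies there. RefSeq promoters of GRCm38.p6 were matched for 35 of the 46 members, 5 of them called. The letters CTTTC on the gene's strand, a common core of such starts, were present within 15 bases of a start in 12 of the 35 (34.3%) against 4.76% of 27025 genes, and on the opposite strand in 2 of 35 (5.71%) against 4.21%. The called members with a promoter are shown first, followed by members with CTTTC whose fold change was close to the threshold, near 0 or at the middle of the group. Each line holds the 15 bases before the RefSeq start and the first 15 of the transcript, 5′ to 3′ on the gene's strand, with CTTTC in capitals.
Rpl37a: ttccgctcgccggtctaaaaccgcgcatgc
Rpl39: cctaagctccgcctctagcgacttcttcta
Rpl22l1: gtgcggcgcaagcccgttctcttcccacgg
Rpl9: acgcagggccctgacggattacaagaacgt
Rpl34: cgccttccctgacgtacttcctgtccggcg
Rplp2: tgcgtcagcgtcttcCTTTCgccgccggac
Rpl38: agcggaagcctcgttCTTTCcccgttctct
Rpl13a: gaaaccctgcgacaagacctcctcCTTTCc
Rpl35: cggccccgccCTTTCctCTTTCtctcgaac

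These windows lie at chr1:72711245-72711274 for Rpl37a, chrX:37085208-37085237 on the minus strand for Rpl39 and chr3:28805493-28805522 for Rpl22l1, all in GRCm38. They cover the last bases upstream and the first bases of the first exon. None of the 5 called members with a promoter held CTTTC in the window, and Rplp2 and Rpl38, just outside the fold threshold, did. The 12 members with it had a median log2 fold change of -0.29 and 0 called. The 23 without it had a median of -0.30 and 5 called, and this difference was not tested. Over all genes 3.14% were called lower, so 0 called among 12 says little. Windows without CTTTC can still hold runs of pyrimidines, as that of Rpl22l1 does. The absence of these letters is therefore not the absence of a TOP motif. Rpl34 also has another RefSeq start, not printed, whose window lacks CTTTC but opens with an unbroken run of pyrimidines that reaches past the start.

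The hexamer GGGCGG, read on either strand over 300 bases of promoter, was present in 24 of 35 members (68.6%) against 38.2% of all genes. The letters CCGGAAG, an ETS-type motif, were present on either strand in 14 of 35 members (40.0%) against 9.93% of all genes. TATAA, in the 50 bases before the start on either strand, was present in 1 of 35 (2.86%) against 7.50%. These matches are descriptions of the letters in these windows.

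In whole muscle, fewer cells of a type and less RNA per cell cannot be told apart. Summed over 10 leukocyte markers the level was 11.02 to 22.7 CPM in WT and 10.7 to 14.5 CPM in KO, and over 8 fibroblast markers 114 to 364 CPM in WT and 98.4 to 213 CPM in KO. Over 8 endothelial markers it was 87.4 to 140 CPM in WT and 131 to 149 CPM in KO, with all 8 above 0 in fold change and 0 called. Of the 7 leukocyte markers tested 5 were below 0, with a median log2 fold change of -0.69, 1 called lower and 1 called higher, and of the 8 fibroblast markers 7 were below 0, with a median of -0.48 and 0 called. No marker list was at 0 in any library, and in each of the 3 lists the ranges of the genotypes overlapped. Their part in the lower level of large-subunit transcripts was not tested.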

How the data were processed

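RNA-seq was performed by the authors on TA muscle of 3 WT and 3 KO mice. According to the methods and labels, libraries (NEBNext Ultra) gave 150-base paired reads, aligned with Hisat2 (version 2.1.0) and counted per gene with featureCounts (version 1.6). The authors deposited raw counts, without normalization. The column without a replicate number was taken as WT replicate 1, since the other WT columns carry 2 and 3. The methods name GRCm38 and the submitters' processing notes GRCm39. Start and end were identical to GENCODE M21, an annotation of GRCm38, for 1494 of 52083 genes, so positions in the table were not used, and mature lengths are from M21. The mature transcript of a gene was the one ranked highest as its principal transcript in the APPRIS annotation. Ties went to a coding transcript and then to the longest, so mature lengths depend on this choice. Handling of strand and of multi-mapped reads is not given in the sources used here.

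Counts were filtered with filterByExpr, scaled by TMM (factors 0.893 to 1.20) and fitted with edgeR (version 4.0.16, R 4.3.3) by a robust quasi-likelihood test, KO minus WT, with Benjamini-Hochberg adjustment over 15623 genes. The steps were tested on simulated data. DESeq2 (version 1.42.0) and other filters, scalings, offsets, thresholds and left-out libraries were alternatives. Replicates of a genotype differed beyond sampling noise (chi-square over its degrees of freedom, 19.3 to 70.5). The members and lists were chosen with earlier results of these data known. Named genes were, by rule, called members, the 3 lowest and 3 highest by fold change and by length-scaled WT level, paralog pairs, Selenow, up to 3 called genes of each other list by lowest p, and a gene that is not reported here. Symbols were matched for 52083 of 55416 genes, but Polr1f and Polr1g were not matched, and Polr1h is the gene listed as Znrd1. No RefSeq promoter was matched for Rpl3, Rpl7, Rpl8, Rpl17, Rpl21, Rpl23a, Rpl29, Rpl30, Rpl32, Rpl36 and Rplp1. Genes with several RefSeq starts counted once, and 1 start is printed.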

Additional observations from a re-analysis of the deposited data

How the results depend on the processing

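The direction of the shift was kept under every alternative fit: the median log2 fold change of the members was -0.55 to -0.21 and 42 to 46 of the 46 were below 0. Total counts as library size in place of TMM, added after the data were seen, moved the median of all genes to -0.25 and that of the members to -0.55, with 27 members, 27 small-subunit genes, 6 assembly factors, 3 other TOP mRNAs and 1792 genes called; relative to all genes the members' median was -0.30 there and -0.31 with TMM. No filter gave 1780 genes called, 9 members and 1 assembly factor. At least 10 counts in every library gave 1 assembly factor. The offset for mature transcript length gave 4 members. An adjusted p under 0.05 left 0 genes and 0 members (363 and 8 without a filter, 55 and 5 with total counts, and 0 to 242 genes and 0 members when a library was left out), and an absolute log2 fold change over 1 left 315 genes and 2 members. Leaving out each library in turn gave 3 to 12 members, 6 to 15 small-subunit genes, 0 to 2 assembly factors, 0 to 1 other TOP mRNAs and 814 to 1072 genes. Deviations of same-numbered libraries correlated at 0.060, 0.044 and -0.074, against -0.14 to 0.093 for the other pairs. The labels state no pairing, and these values cannot exclude one. With the replicate block 890 genes and the same 8 members were called. Single members near 0 changed sign. Rpl4 was at -0.0051 without a filter, -0.23 with total counts and -0.053 to 0.087 when a library was left out. Rpl35 was at 0.059 and 0.076 with the length offsets and Rpl21 at -0.21 with total counts and -0.069 with pseudogenes. Leaving out a library put Rpl35 at -0.13 to 0.11 and Rpl21 at -0.15 to 0.15, with -0.055 without WT replicate 2. Rpl17 was at -0.64 to 0.054, above 0 without WT replicate 2, and Rpl3 at -0.42 to 0.12, above 0 without WT replicate 3. Without a library the log2 ratio of Rpl3l to Rpl3 was -0.040 to 0.52, that of Rpl36al to Rpl36a -0.073 to 0.16 and that of Rpl7l1 to Rpl7 -0.049 to 0.056. Of the values of the named members under these alternatives that kept their sign, 285 stayed on their side of the thresholds, 18 lost the call and 6 gained it. The causes were not tested.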
